A study of Homo sapiens with 9 samples.

Results

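ERBB2 and 7 genes that lie beside it on chromosome band 17q12 (GRB7, STARD3, PGAP3, MIEN1, CDK12, MED1 and PSMD3) were followed in SKOV3, a line of human cancer cells established from an ovarian carcinoma. The list was made by name and map position, though earlier results of these data were known when it was made. Its genes are 8 of the 32378 genes in the deposited table. All 8 were among the 16450 genes with enough counts to be tested. RNA was sequenced from 3 groups of 3 libraries of SKOV3 cells grown in RPMI medium with serum. The groups are labelled control, Carbo, which the series title lets one read as carboplatin, and Carbo+COM33, which received COM33 as well and is known here only by that code. The labels give no dose, no time and no vehicle, and no group received COM33 alone, so the effect of COM33 without Carbo is not analysed here. The labels do not say whether the 3 libraries of a group come from separate cultures, so all p-values measure the spread between these libraries, which may be technical.

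ERBB2, also called HER2, is a receptor tyrosine kinase of the EGF receptor family that has no known ligand of its own and signals as the partner of EGFR, ERBB3 or ERBB4. Extra copies of the 17q12 segment that holds it occur in some breast, gastric and ovarian cancers, and the genes beside ERBB2 are often gained with it. SKOV3 is widely used as a cell line with such a gain. These libraries measure RNA and not gene copies, so copy number was not analysed here.

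In coordinates of GRCh38, the members run along chromosome 17 in the order MED1 (39404285 to 39451286, minus strand), CDK12 (39461511 to 39564907, plus strand), STARD3 (39637065 to 39663484, plus strand), PGAP3 (39671122 to 39696797, minus strand), ERBB2 (39687914 to 39730426, plus strand), MIEN1 (39728496 to 39730787, minus strand), GRB7 (39737927 to 39747291, plus strand) and PSMD3 (39980797 to 39997960, plus strand). Both direct neighbours overlap ERBB2 on the opposite strand. ERBB2 and PGAP3 start head to head, and their annotated exons share 194 bp, 5.29% of the exon length of PGAP3. ERBB2 and MIEN1 end tail to tail, and their exons share 571 bp, 24.91% of the exon length of MIEN1, though 0 bp between the protein-coding transcripts of both genes. The strand setting of the read counting is not given in the sources used here, so reads from these shared stretches cannot be told apart. The other 5 members share no exon with ERBB2.

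The promoters of ERBB2 and its neighbours are shown because ERBB2 and PGAP3 start head to head, so that the sequence before one start runs into the other gene. RefSeq (GRCh38.p14) holds a promoter for 7 of the 8 members, the exception being GRB7. Each line gives the 250 bases before the RefSeq start, 5′ to 3′ on the gene's own strand. Capitals mark the ETS core motif CCGGAAG on either strand, CTTCCGG being the same motif read on the other strand. The ERBB2 window is chr17:39687844-39688093 on the plus strand, the PGAP3 window chr17:39688058-39688307 on the minus strand, the STARD3 window chr17:39636894-39637143 on the plus strand and the MIEN1 window chr17:39730533-39730782 on the minus strand.
ERBB2: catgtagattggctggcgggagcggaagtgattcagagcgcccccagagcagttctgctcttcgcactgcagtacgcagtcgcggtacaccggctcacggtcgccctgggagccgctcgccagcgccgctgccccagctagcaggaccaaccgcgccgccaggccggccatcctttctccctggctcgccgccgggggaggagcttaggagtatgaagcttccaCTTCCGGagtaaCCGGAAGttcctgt
PGAP3: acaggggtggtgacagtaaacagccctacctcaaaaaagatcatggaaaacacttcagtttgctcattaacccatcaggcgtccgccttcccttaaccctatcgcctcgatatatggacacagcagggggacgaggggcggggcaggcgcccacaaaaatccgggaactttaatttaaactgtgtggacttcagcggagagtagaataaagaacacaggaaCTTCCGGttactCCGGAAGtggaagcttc
STARD3: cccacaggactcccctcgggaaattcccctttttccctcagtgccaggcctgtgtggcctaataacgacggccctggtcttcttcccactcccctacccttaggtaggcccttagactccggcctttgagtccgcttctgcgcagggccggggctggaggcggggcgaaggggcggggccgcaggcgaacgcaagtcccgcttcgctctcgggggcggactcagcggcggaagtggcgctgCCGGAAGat
MIEN1: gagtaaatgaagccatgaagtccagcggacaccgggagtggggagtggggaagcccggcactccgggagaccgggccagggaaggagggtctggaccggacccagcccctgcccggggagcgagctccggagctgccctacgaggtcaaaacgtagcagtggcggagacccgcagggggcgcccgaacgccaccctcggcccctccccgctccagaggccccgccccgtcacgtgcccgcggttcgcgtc
The RefSeq starts of ERBB2 and PGAP3 have 36 bp between them, and those 36 bp are the end of both windows, read from opposite strands. They hold 2 ETS matches, which lie 26 and 14 bases before the start of ERBB2, and the same letters lie 29 and 17 bases before the start of PGAP3. STARD3 has 1 such match, 9 bases before its start, and MIEN1, CDK12, MED1 and PSMD3 have none. Of 35116 RefSeq promoter windows of this length, 8.52% hold the motif. The AP-2 motif GCCNNNGGC, named for a factor family long linked to ERBB2 in breast cancer cells, matched once in STARD3 and once in PSMD3 and not in the ERBB2 window, and 19.8% of all windows hold it. A match is a match of letters and says nothing of binding. Of the 22 annotated ERBB2 transcripts, 3 start within 250 bp of the RefSeq start and 8 start 11 to 13 kb downstream. Counts per gene do not tell which start was used. The sequence before those downstream starts was not searched, so the AP-2 and ETS results for ERBB2 hold for the window shown only.

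Libraries held 13851760 to 15533668 counts over all genes. Keratins and PAX8, markers of an ovarian carcinoma line, were present (KRT8 58.2, KRT18 42.3 and PAX8 51.5 mean FPKM in control), while WT1 (0.376) and MUC16 (0.0457), which mark many ovarian carcinomas, were near 0. The summed FPKM of the 9 carcinoma markers was 417 to 456 in control, 382 to 420 in Carbo and 328 to 371 in Carbo+COM33. The markers did not all move together. From control to Carbo+COM33 mean KRT7 fell from 74.7 to 32.4 FPKM, while mean PAX8 rose from 51.5 to 64.7 FPKM. KRT8, KRT18, KRT19, EPCAM and MSLN were also lower in Carbo+COM33 than in control. The part of this sum in the results below was not tested. Of 8 blood and immune markers 7 were in the table, and their sum reached at most 0.726 FPKM in any library. The sum of 3 endothelial markers reached at most 0.0587 FPKM, and that of 5 markers of nerve, liver and muscle at most 0.374. The sum of 4 fibroblast markers was higher, at 1.04 to 4.11 FPKM in control and 1.07 to 4.18 in Carbo. In Carbo+COM33 it was 0.599 to 1.35 FPKM. COL1A1 was the highest of these 4, at a mean of 2.78, 2.84 and 0.924 FPKM in control, Carbo and Carbo+COM33.

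The level of the members was read in control as FPKM, fragments per kilobase of gene scaled to the library total, which allows a comparison between genes of different length. ERBB2 measured 219, 235 and 227 FPKM in the 3 control libraries, a mean of 227 ± 7.93 (SD, n = 3). That placed it at percentile 99.57 of the tested genes, rank 70 from the top. A share of 0.226% to 0.243% of all counts in a control library came from this 1 gene. MIEN1, a small membrane-anchored protein linked to cell migration, came next at 134 ± 0.324 FPKM, percentile 98.99. The order went on with PGAP3, an enzyme that remodels the lipid of GPI anchors (70.0 ± 3.59 FPKM), and STARD3, a late endosomal cholesterol carrier (58.3 ± 3.46 FPKM). MED1, a subunit of the Mediator complex that nuclear receptors bind, was at 45 ± 1.41 FPKM, and PSMD3, a subunit of the 19S cap of the proteasome, at 43.0 ± 1.71 FPKM. CDK12, a kinase that phosphorylates RNA polymerase II and is needed for long DNA repair genes, was at 16.3 ± 0.639 FPKM.

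GRB7, an adaptor whose SH2 domain binds phosphorylated ERBB2, stood apart from the rest at the low end. It measured 3.7, 4.6 and 5.03 FPKM in control, a mean of 4.45 ± 0.678 (SD, n = 3) and percentile 50.75, close to the median tested gene at 4.32 FPKM. GRB7 lies only 7139 bp beyond MIEN1. Per length, the control level of ERBB2 was 51.1 times that of GRB7 and 1.69 times that of MIEN1. These ratios depend on the length used, all annotated exons joined, which was 10321 bp for ERBB2 and 2292 bp for MIEN1. In counts not divided by length, ERBB2 was 147 times GRB7 and 7.61 times MIEN1. Neighbours in the order of control levels had non-overlapping libraries, except MED1 and PSMD3, whose libraries ran from 43.4 to 45.9 and from 41.6 to 44.9 FPKM.

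**Figure D1:**
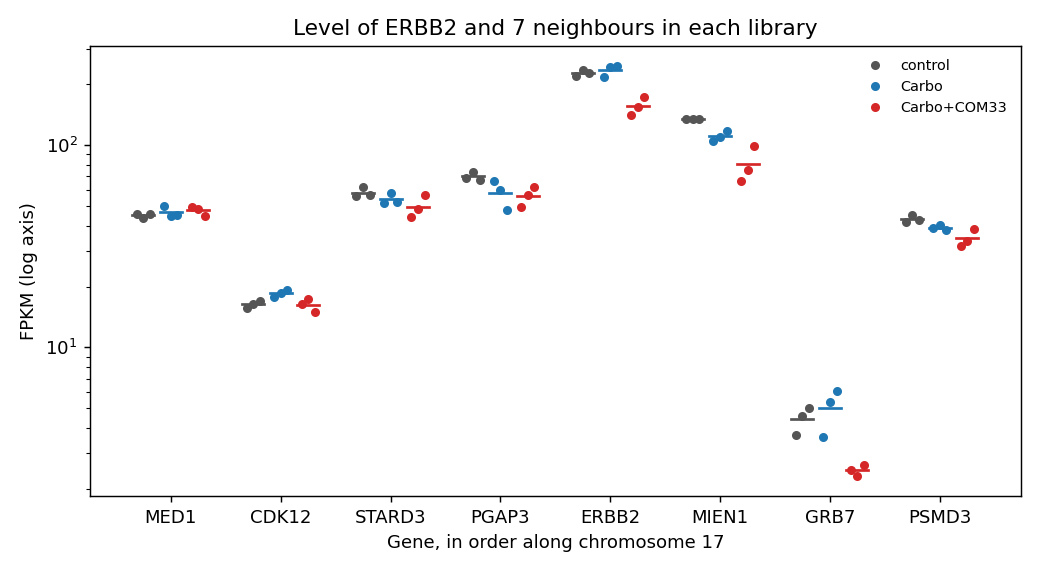
FPKM (log axis) of the 8 members in each of the 9 libraries, in order along chromosome 17; points are libraries in replicate order and bars are group means. ERBB2 is the highest in every group and GRB7 the lowest, and the Carbo+COM33 libraries of ERBB2, MIEN1 and GRB7 lie below those of the other groups.

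Of the 8 members, 6 lay above the 90th percentile of tested genes in control (26.2 FPKM), a share of 75.0%. Among the other tested genes that start within 2 Mb of ERBB2, 12 of 55 did (21.8%).  The highest of the 63 tested genes in that window was RPL19, a ribosomal protein gene, at 340 ± 26.7 FPKM, followed by ERBB2, by KRT19 at 155 ± 11.1 FPKM, and by MIEN1.

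**Figure D2:**
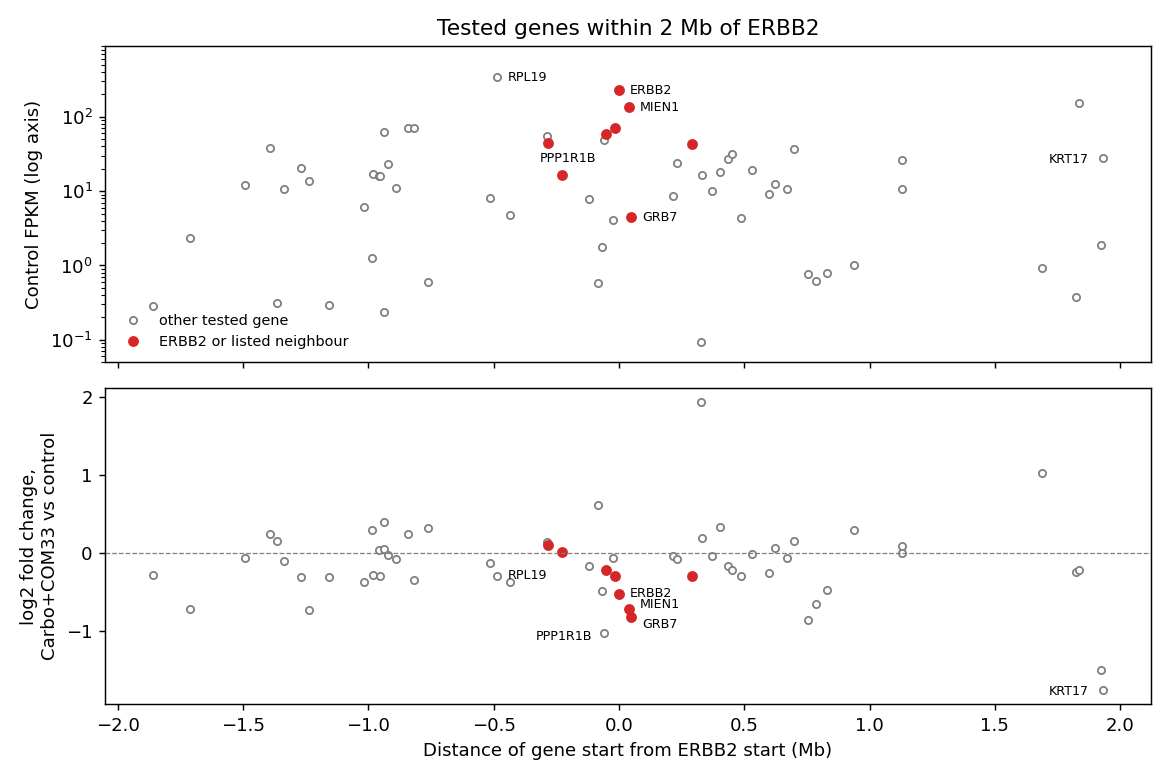
Tested genes within 2 Mb of ERBB2, by the distance of their start from the ERBB2 start (Mb): mean control FPKM on a log axis above and log2 fold change of Carbo+COM33 against control below, with the 8 members in red. RPL19 at 340 FPKM and ERBB2 at 227 FPKM are the highest. In the lower panel PPP1R1B, GRB7, MIEN1 and ERBB2 lie at -0.52 or lower. So do KRT17 (-1.75), KRT16 (-1.49), IGFBP4 (-0.85), AC244153.1 (-0.73), TBC1D3L (-0.72) and TNS4 (-0.65), which start farther from ERBB2. STARD3, TCAP and PGAP3, which start between PPP1R1B and ERBB2, lie at -0.21, -0.06 and -0.29.

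Set against the receptor family it belongs to, ERBB2 was the highest of 44 receptor tyrosine kinase genes. AXL followed at 107 ± 11.7 FPKM, EPHA2 at 93.2 ± 7.24, MET at 42.6 ± 0.454, PTK7 at 41.4 ± 1.93 and EGFR at 31.1 ± 1.7. The possible partners of ERBB2 other than EGFR were near 0, with ERBB3 at 0.162 FPKM and ERBB4 at 0.0103 FPKM. In Carbo+COM33 ERBB2 measured 156 ± 15.9 FPKM and AXL 101 ± 13.6 FPKM, so ERBB2 was still the highest.

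**Figure D3:**
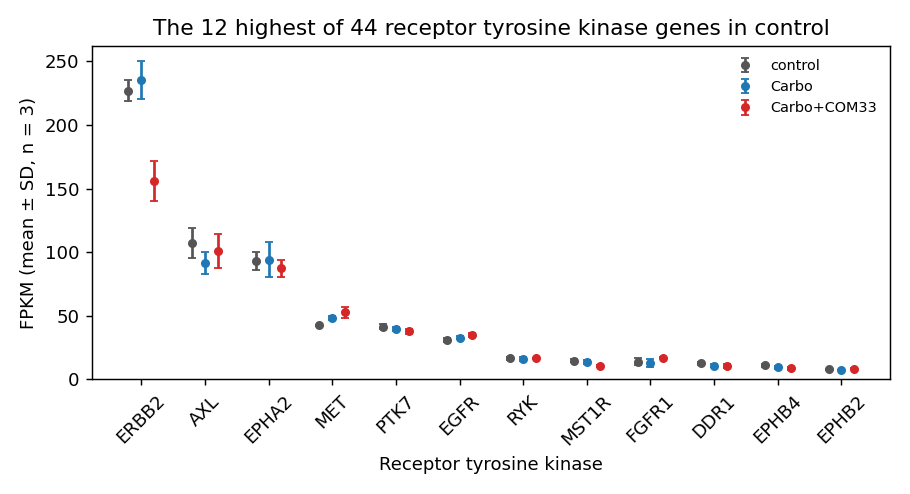
Mean FPKM ± SD (n = 3 libraries) of the 12 receptor tyrosine kinase genes with the highest control level, by group. ERBB2 is at 227 in control, 235 in Carbo and 156 in Carbo+COM33, above AXL in each.

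Carbo+COM33 was compared with Carbo to see what COM33 added. ERBB2 fell by 0.57 on the log2 scale and GRB7 by 1.0, while the 6 other members did not pass the test. The 2 members that passed both went down, where 4.96% of the tested genes passed in either direction and 2.53% downward. The CPM of Carbo+COM33 lay wholly below that of Carbo for 4 members (ERBB2, GRB7, MIEN1 and CDK12), and for 11.9% of all tested genes. CPM is the count scaled to the library total after TMM normalization. Each adjusted p comes from the quasi-likelihood test of edgeR, with Benjamini and Hochberg's adjustment over all 16450 genes.

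ERBB2 was at 2239.0, 2472.6 and 2532.3 CPM in the Carbo libraries 1 to 3 and at 1485.1, 1605.1 and 1800.5 CPM in the Carbo+COM33 libraries. Every Carbo+COM33 library lay below every Carbo library, and the gap between the groups was wider than the spread within either. The log2 fold change was -0.57 (SE 0.0902, 95% interval -0.76 to -0.37, edgeR adjusted p = 0.00508), a level 32.5% lower. ERBB2 stayed called in each of the 9 fits that left out 1 library, with adjusted p up to 0.0455. Its share of all counts ran from 0.225% to 0.253% in the Carbo libraries and from 0.146% to 0.178% in the Carbo+COM33 libraries. In RNA from whole cultures, less ERBB2 RNA in every cell and fewer cells with much of it cannot be told apart.

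GRB7 was at 12.8, 19.2 and 22.0 CPM in Carbo and at 9.13, 8.45 and 9.49 CPM in Carbo+COM33. The Carbo libraries varied widely, with the first nearest to the Carbo+COM33 libraries, but the groups did not overlap. The log2 fold change was -1.0 (SE 0.188, edgeR adjusted p = 0.0108), a level 49.9% lower, from 121 to 316 counts per library. This call rested on several libraries, since the adjusted p of GRB7 was 0.0701 without Carbo 2, 0.0529 without Carbo+COM33 1 and 0.0598 without Carbo+COM33 2.

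MIEN1 was at 240, 248 and 268 CPM in Carbo and at 156, 175 and 228 CPM in Carbo+COM33. All 3 Carbo+COM33 libraries were lower than the lowest Carbo library, the third by little. The log2 fold change was -0.43 (SE 0.116, 95% interval -0.69 to -0.18), and the edgeR adjusted p of 0.0501 lay just outside the threshold of 0.05. DESeq2 gave an adjusted p of 0.0141 for MIEN1. The edgeR adjusted p was 0.0499 without control 1, 0.0176 without Carbo 1 and 0.00725 without Carbo+COM33 3, and over all 9 fits without 1 library it ran up to 0.186.

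PGAP3, whose RefSeq start lies head to head with that of ERBB2, was at 243, 217 and 176 CPM in Carbo and at 185, 212 and 230 CPM in Carbo+COM33. The groups overlapped fully, and the log2 fold change was -0.02 (95% interval -0.27 to 0.23, edgeR adjusted p = 0.940). STARD3 had a log2 fold change of -0.10 (95% interval -0.31 to 0.10), PSMD3 one of -0.15 (-0.33 to 0.03), CDK12 one of -0.16 (-0.33 to 0.01) and MED1 one of 0.06 (-0.11 to 0.23), with edgeR adjusted p-values of 0.563, 0.312, 0.249 and 0.703. All of these intervals lie above the ERBB2 estimate of -0.57.

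The difference between ERBB2 and its neighbours was then tested within libraries, as the log2 ratio of each neighbour to ERBB2. With 3 libraries against 3, a 2-sided exact permutation test cannot give a p below 0.1. From Carbo to Carbo+COM33 the ratio of PGAP3 to ERBB2 went from -3.52 ± 0.321 to -2.96 ± 0.0429, a difference of 0.55 with no overlap of libraries (exact permutation p = 0.1). The ratios of STARD3 (difference 0.46), CDK12 (0.41), MED1 (0.63) and PSMD3 (0.42) also had no overlap, each with that smallest p. For MIEN1 the difference was 0.12 (exact permutation p = 0.3) and for GRB7 -0.39 (exact permutation p = 0.2), and their libraries overlapped. All 7 ratios share the values of ERBB2 and are not independent of each other. They restate within libraries the fold changes given above and are not separate evidence.

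Carbo+COM33 was also compared with control, which shares the Carbo+COM33 libraries with the comparison above. MIEN1, ERBB2 and GRB7 fell, by 0.72, 0.52 and 0.82 on the log2 scale. These are 3 of the 8 members, where 6.29% of the tested genes were called in either direction and 3.09% downward. The CPM of Carbo+COM33 lay wholly below control for these 3, PGAP3 and PSMD3, as it did for 14.4% of tested genes.

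MIEN1 was at 309, 306 and 307 CPM in control, almost the same value in each library, against the 156, 175 and 228 CPM of Carbo+COM33. Its log2 fold change was -0.72 (SE 0.116, edgeR adjusted p = 0.00543), a level 39.2% lower, and it stayed called in all 9 fits that left out a library. ERBB2 was at 2273.3, 2404.1 and 2328.0 CPM in control, above all 3 Carbo+COM33 libraries. Its log2 fold change was -0.52 (SE 0.0901, 95% interval -0.71 to -0.32, edgeR adjusted p = 0.00807), a level 30.2% lower. The adjusted p of ERBB2 was 0.0598 without control 2, 0.061 without Carbo+COM33 1 and 0.0547 without Carbo+COM33 2.

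GRB7 was at 13.4, 16.4 and 18.0 CPM in control, again above all 3 Carbo+COM33 libraries. Its log2 fold change was -0.82 (SE 0.189, edgeR adjusted p = 0.0265), a level 43.3% lower. This is the least stable of the 3 calls. After a correction for GC content and gene length GRB7 had a log2 fold change of -0.69 with an adjusted p of 0.0673, and the adjusted p was 0.118, 0.106, 0.113 and 0.115 without control 2, control 3, Carbo+COM33 1 and Carbo+COM33 2.

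The 5 other members did not pass. PSMD3 came closest, at 207, 221 and 209 CPM in control and 161, 169 and 194 CPM in Carbo+COM33, with a log2 fold change of -0.29 (95% interval -0.46 to -0.11, edgeR adjusted p = 0.0582) and no overlap of libraries. Its adjusted p was 0.0384 without Carbo 1 and 0.0102 without Carbo+COM33 3. PGAP3 had the same log2 fold change, -0.29, with a wider interval (-0.54 to -0.04, edgeR adjusted p = 0.142). STARD3 was at -0.21 (edgeR adjusted p = 0.202), and at -0.31 with an adjusted p of 0.0352 without Carbo+COM33 3. MED1 at 0.11 and CDK12 at 0.02, the members on the far side of STARD3 from ERBB2, had edgeR adjusted p-values of 0.433 and 0.918.

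**Figure D4:**
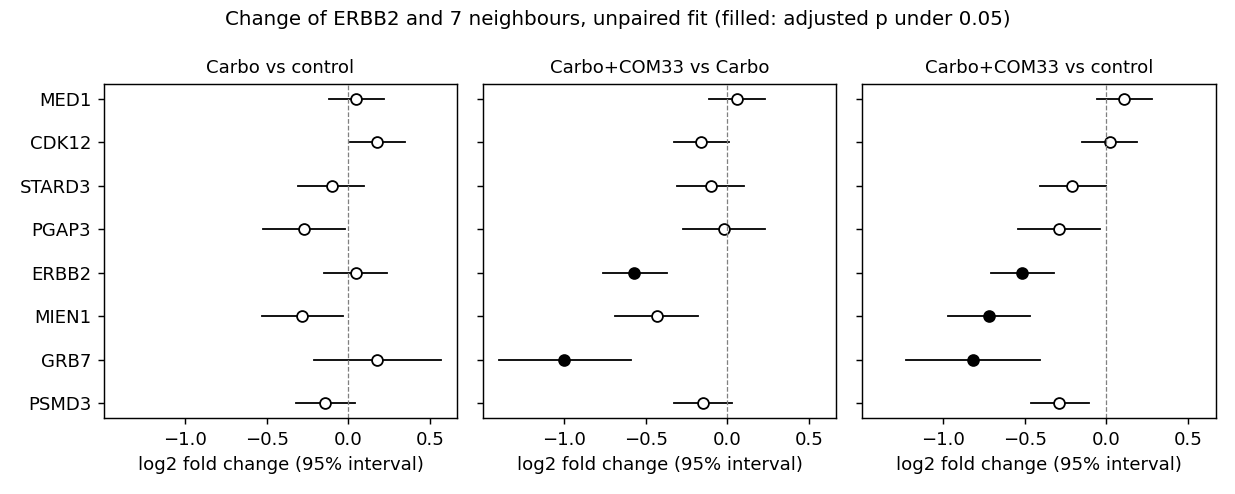
Log2 fold change of the 8 members, in order along chromosome 17, with the 95% interval from the unpaired edgeR fit of all 9 libraries; filled points have an adjusted p under 0.05. ERBB2 and GRB7 are filled in both comparisons of Carbo+COM33 and MIEN1 in that with control, and no point is filled for Carbo against control.

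Carbo was compared with control, the same libraries as above, to see what Carbo changed on its own. ERBB2 itself was nearly level, at 2239.0 to 2532.3 CPM in Carbo against 2273.3 to 2404.1 CPM in control. The groups overlapped, and the log2 fold change was 0.05 (95% interval -0.15 to 0.24, edgeR adjusted p = 0.811). GRB7 had a log2 fold change of 0.18 (edgeR adjusted p = 0.626). None of the 8 members was called, and of all tested genes 0.0% were, although 2748 (16.7%) had an unadjusted p under 0.05 and DESeq2 called 133. The libraries of the groups did not overlap for 4 members (CDK12 higher in Carbo, and PGAP3, MIEN1 and PSMD3 lower) and for 22.5% of tested genes.

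Control and Carbo libraries with the same replicate number deviated from their groups in the same way, so the comparison was also made within replicate numbers. In the paired fit of these 6 libraries (2 residual degrees of freedom) 22.7% of the tested genes were called, and 4 of the 8 members were among them. The same pairing fitted over all 9 libraries called 0 genes, and the edgeR adjusted p was then 0.202 for MIEN1, 0.25 for PGAP3, 0.257 for CDK12 and 0.356 for PSMD3, with nearly the same fold changes. The calls that follow are those of the 6-library fit. MIEN1 fell by 0.29 on the log2 scale (edgeR adjusted p = 3.44e-04), and its Carbo libraries at 240 to 268 CPM all lay below the control libraries at 306 to 309 CPM. PGAP3 fell by 0.28 (edgeR adjusted p = 0.00318) and was lower in 3 of 3 pairs. PSMD3 fell by 0.14 (edgeR adjusted p = 0.0356), and CDK12 rose by 0.18 (edgeR adjusted p = 0.00836), from 201, 206 and 215 CPM to 225, 234 and 245 CPM. ERBB2 (0.04), GRB7 (0.17), STARD3 (-0.11) and MED1 (0.05) were not called, with edgeR adjusted p-values of 0.524, 0.278, 0.0915 and 0.522.

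Within the 6 libraries, some of the calls also depended on a correction or on a single pair. With a correction for GC content and gene length in that fit, 10.8% of genes were called, MIEN1 kept its call at -0.19 (edgeR adjusted p = 0.00835) and ERBB2 was called higher at 0.15 (edgeR adjusted p = 0.0321). PGAP3 (-0.13), CDK12 (0.07) and PSMD3 (-0.09) then had edgeR adjusted p-values of 0.173, 0.372 and 0.21. MIEN1 and PGAP3 were called in the paired fit without any 1 pair, CDK12 was not called without the second pair (edgeR adjusted p = 0.132), and PSMD3 was not called without the second (edgeR adjusted p = 0.329) or the third (edgeR adjusted p = 0.0823).

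MIEN1 and ERBB2, which overlap at their 3′ ends, differed in the order of their 3 group means. In the unpaired fit neither was called for Carbo against control (edgeR adjusted p = 0.266 for MIEN1 and 0.811 for ERBB2). The mean of MIEN1 was 307 ± 1.47 CPM in control, 252 ± 14 in Carbo and 186 ± 37.5 in Carbo+COM33 (SD, n = 3 each). ERBB2 was at 2335.1 ± 65.7, 2414.6 ± 155 and 1630.2 ± 159 CPM, with control and Carbo close together and Carbo+COM33 below both.

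Across libraries, the value of ERBB2 split into separate ranges, 11.13 to 11.31 log2 CPM in the control and Carbo libraries and 10.54 to 10.81 in Carbo+COM33, so correlations are given within the 6 control and Carbo libraries. GRB7 had the highest correlation of the 7 neighbours there, with Pearson's r = 0.92 and Spearman's rho = 0.94. An r at least as high was found for 1.89% of genes. Without Carbo 1 and Carbo 3, the libraries farthest from the median of ERBB2, the r of GRB7 was 0.78. The values of r for the other 6 of the 7 relations were 0.64 for CDK12, 0.19 for STARD3, -0.14 for MIEN1, -0.19 for PSMD3, -0.67 for MED1 and -0.72 for PGAP3. Same-numbered control and Carbo libraries deviate together, and replicate 1 was the lowest of its group for both ERBB2 and GRB7 in control and in Carbo. The 6 libraries are thus not independent, and these values are a description with no p.

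**Figure D5:**
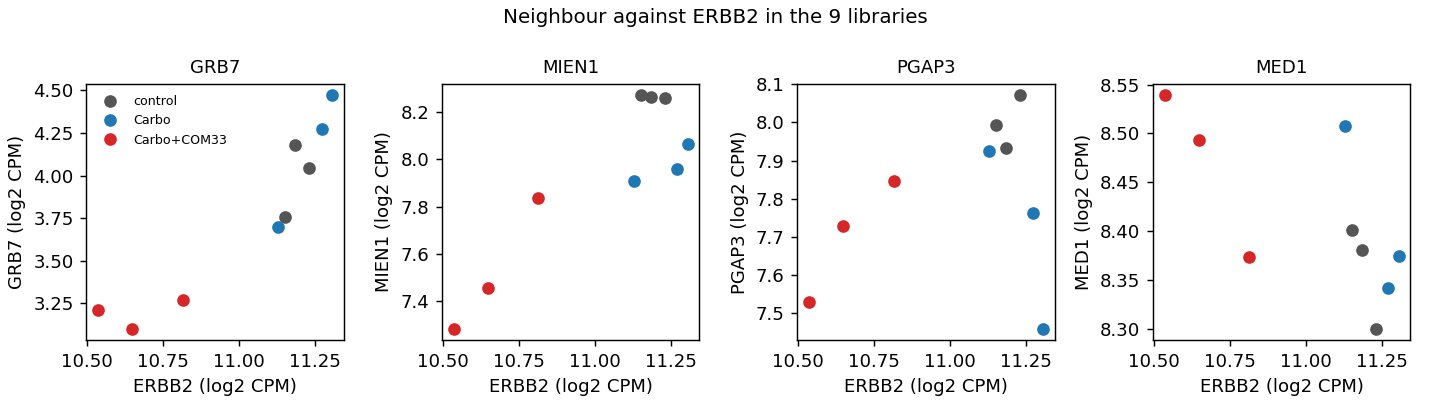
Log2 CPM of GRB7, MIEN1, PGAP3 and MED1 against that of ERBB2, with 1 point per library, coloured by group. The 3 Carbo+COM33 libraries lie at 10.54 to 10.81 on the ERBB2 axis and the other 6 at 11.13 to 11.31, and within those 6 libraries GRB7 rises with ERBB2 (r = 0.92) and PGAP3 does not (r = -0.72).

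The genes whose log2 CPM was most like that of ERBB2 over all 9 libraries lay on other chromosomes. They were PIM1, a serine/threonine kinase (r = 0.997), ZMYM3 (r = 0.99), FOSL2, an AP-1 transcription factor (r = 0.987), ATXN7L2 (r = 0.986) and COL5A1-AS1 (r = 0.984), an antisense RNA whose reads cannot be told from its partner's without strand. Among the neighbours, r over the 9 libraries was 0.93 for GRB7, 0.89 for MIEN1, 0.82 for PSMD3 and 0.72 for STARD3. It was 0.33 for PGAP3 and CDK12 and -0.7 for MED1. Of all genes, 0.912% reached the r of GRB7 and 2.11% that of MIEN1. This likeness is a description in which the split between Carbo+COM33 and the other libraries has a large share, and 1.6% of genes had an r of at least 0.9. PIM1 was at 36.9 ± 0.901, 38.3 ± 2.15 and 26.6 ± 1.89 CPM in control, Carbo and Carbo+COM33.

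Between and around the members, PPP1R1B, which encodes the phosphatase inhibitor DARPP-32, also fell in Carbo+COM33. It lies between CDK12 and STARD3 at chromosome 17, 39626740 to 39636626, with its start at -61.2 kb from that of ERBB2. It was at 221 ± 30.0 CPM in control, 202 ± 34.6 in Carbo and 109 ± 18.0 in Carbo+COM33. Its log2 fold change was -0.89 against Carbo (SE 0.147, edgeR adjusted p = 0.00618) and -1.02 against control (SE 0.148, edgeR adjusted p = 0.00340).

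The window was divided at 0.2 Mb from ERBB2, a limit that was not among the planned tests. Of the 10 tested genes that start within it, 3 fell in Carbo+COM33 against Carbo (ERBB2, GRB7 and PPP1R1B). Against control 4 fell (the same genes and MIEN1), and none was called higher. All but PPP1R1B are members reported above. Over all tested genes 2.53% were called lower against Carbo and 3.09% against control. GSDMB, CDK12 and ORMDL3 start just outside the limit and were at -0.04, 0.02 and -0.08 against control. Of the 53 that start farther out, up to 2 Mb away, 2 fell against Carbo and 4 against control, also with none higher. The 2 that fell against Carbo were the keratin gene KRT17 (-1.41, edgeR adjusted p = 0.00638) and CDC6, a DNA replication licensing factor (-0.51, edgeR adjusted p = 0.0326). Against control KRT17 fell by 1.75 and KRT16 by 1.49. The median log2 fold change against control was -0.38 for the 10 near genes and -0.08 for the 53 others, beside -0.01 for all tested genes. Against Carbo the medians were -0.2 and -0.03, again beside -0.01. Among the 10 near genes, 9 had a negative log2 fold change against control, TCAP being at -0.06. The other, NEUROD2, was at 0.62 (edgeR adjusted p = 0.166).

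A list of 28 tested genes of 17q12-q21 left out the members. PPP1R1B and CDC6 were the 2 called against Carbo, where 4.96% of all tested genes were called. PPP1R1B and FBXL20 (-0.37, edgeR adjusted p = 0.0424) were the 2 called against control, where 6.29% of all tested genes were. In the paired fit of the 6 Carbo and control libraries, 3 of the 28 rose and 9 fell, where 22.7% of all tested genes were called. TOP2A, the topoisomerase gene often gained with ERBB2, rose by 0.69 (edgeR adjusted p = 1.82e-05). LASP1, an actin-binding protein gene, fell by 0.32 (edgeR adjusted p = 1.40e-04). Without pairing their edgeR adjusted p-values were 0.22 and 0.263, and TOP2A varied widely in Carbo (389 ± 102 CPM). The same pairing over all 9 libraries called 0 genes. With the GC and length correction 10.8% of tested genes were called in the 6 libraries.

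Among the receptors and ligands of the ERBB family, 10 of 14 genes were tested besides ERBB2. Against Carbo the median log2 fold change was -0.28 beside -0.01 for all tested genes, of which 2.53% were called lower. In Carbo+COM33 2 of the 10 fell and none rose. Both are ligands. NRG1, a ligand of ERBB3 and ERBB4, fell by 1.59 (SE 0.323, edgeR adjusted p = 0.0153), from 151 ± 76.6 to 50.1 ± 4.28 CPM. AREG, a ligand of EGFR, fell by 0.80 (SE 0.196, edgeR adjusted p = 0.0364), from 4.99 ± 0.230 to 2.85 ± 0.433 CPM. Against control none of the 10 was called, and ERBB3 (-1.03) and NRG1 (-1.02) had the largest differences, with edgeR adjusted p-values of 0.126 and 0.0769. In the paired fit of Carbo and control, HBEGF, another EGFR ligand, rose by 0.52 (edgeR adjusted p = 0.00608) and NRG1 by 0.50 (edgeR adjusted p = 9.12e-04). That fit called 22.7% of all tested genes, and without pairing the edgeR adjusted p-values were 0.237 and 0.36.

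Of 33 tested partners and regulators of ERBB2 signalling, 1 rose and 1 fell against Carbo, where 4.96% of tested genes were called (6.29% against control). SHC1, an adaptor that links ERBB receptors to RAS, fell by 0.39 (SE 0.0974, edgeR adjusted p = 0.0375), from 121 ± 13.3 to 92.0 ± 9.21 CPM. It also fell against control, by 0.62 (edgeR adjusted p = 0.00465), as the only called gene of the list there. PTK6, a non-receptor tyrosine kinase that binds ERBB receptors, rose by 0.76 against Carbo (SE 0.184, edgeR adjusted p = 0.0354), from 7.57 ± 1.66 to 12.8 ± 1.07 CPM. In control PTK6 was at 11.7 ± 2.24 CPM, and its log2 fold change against control was 0.13 (edgeR adjusted p = 0.712). GRB2, the adaptor that ties SHC1 to RAS activation, was at 170 ± 5.40 CPM in Carbo and 176 ± 11.2 CPM in Carbo+COM33.

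Of 32 tested receptor tyrosine kinases, ERBB2 included, 3 fell against Carbo and none rose, where 4.96% of tested genes were called (6.29% against control). The others were IGF1R (-0.34, edgeR adjusted p = 0.0371) and ROS1 (-2.42, edgeR adjusted p = 0.0247), the latter from 13.3 ± 8.26 to 2.46 ± 0.917 CPM. Against control ERBB2, MST1R (-0.42, edgeR adjusted p = 0.0342) and IGF1R (-0.34, edgeR adjusted p = 0.0313) fell, and MET rose by 0.33 (edgeR adjusted p = 0.0310). Of these, MST1R was at 14.6 FPKM and IGF1R at 5.66 FPKM in control, far below ERBB2.

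Beside 4.96% of tested genes called against Carbo and 6.29% against control, 7 transcription factors linked to ERBB2 were tested. TFAP2A, an AP-2 factor, was the 1 called. It fell by 0.84 against Carbo (SE 0.162, edgeR adjusted p = 0.0119), from 39.8 ± 8.35 to 22.2 ± 0.526 CPM, and by 0.63 against control (edgeR adjusted p = 0.0396). All 7 of these factors had a negative log2 fold change against control, with KDM5B at -0.04 and ELF3 at -0.06. Their median was -0.25 beside -0.01 for all tested genes, of which 8543 of 16450 were lower. Against Carbo 3 of the 7 were positive and 4 negative, with a median of -0.06. Whether TFAP2A has a part in the level of ERBB2 was not tested.

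Among genes that work with the other members, few were called. For CDK12, 8 tested cyclins and related kinases held none called in Carbo+COM33, and its own cyclin, CCNK, was at 0.22 against Carbo (edgeR adjusted p = 0.327), followed by its close relative CDK13 at -0.11 (edgeR adjusted p = 0.518). Against control CCNH at 0.25 and CCNT2 at 0.21 differed most, with edgeR adjusted p-values of 0.203 and 0.123. For MED1, none of 31 other Mediator subunits was called against Carbo or control, and the largest differences against Carbo were 0.30 for MED17 and MED29 (edgeR adjusted p = 0.366 and 0.12). Against control they were -0.55 for MED11 and 0.51 for MED31 (edgeR adjusted p = 0.202 and 0.16). For PSMD3, beside 4.96% of tested genes called against Carbo in either direction, 2 of 17 other subunits of the 19S cap rose. They were PSMD2 (0.52, edgeR adjusted p = 0.00694), at 372 ± 24.2 CPM in Carbo and 532 ± 31.2 in Carbo+COM33, and PSMD8 (0.33, edgeR adjusted p = 0.0349). PSMD3 itself had a log2 fold change of -0.15 there.

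For STARD3 and PGAP3, 6 genes of endosomal cholesterol transport, START domains and GPI anchors were tested. Among them 2 rose against Carbo, where 4.96% of tested genes were called in either direction. NPC1, the membrane protein that exports cholesterol from late endosomes, rose by 0.66 (SE 0.113, edgeR adjusted p = 0.00705), from 176 ± 21.4 to 277 ± 17.7 CPM. NPC2, its soluble partner, rose by 0.90 (SE 0.168, edgeR adjusted p = 0.0106). Against control NPC1 rose by 0.75 (edgeR adjusted p = 0.00374). STARD3, which works in the same compartment, was at 279 ± 16.2 CPM in Carbo and 259 ± 31.8 CPM in Carbo+COM33.

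Between Carbo and control no gene of these partner lists was called without pairing, and the paired fit of the 6 libraries called some in both directions, against 22.7% of all tested genes. Of the 33 signalling partners 9 rose and 6 fell. PIK3CA, the catalytic subunit of a PI3 kinase, rose by 0.32 (edgeR adjusted p = 0.00216), and CDC37, a co-chaperone that delivers kinases to HSP90, fell by 0.42 (edgeR adjusted p = 3.76e-05). PTK6 fell by 0.63 and SHC1 by 0.23, with edgeR adjusted p-values of 0.00241 and 0.00437. Of the 32 receptor tyrosine kinases 2 rose and 4 fell, among them AXL, which fell by 0.23 (edgeR adjusted p = 0.00104), and MET, which rose by 0.17 (edgeR adjusted p = 0.00944). Of the 31 Mediator subunits 7 rose and 3 fell, and of the 17 subunits of the 19S cap 1 rose and 4 fell, with PSMC1, an ATPase of the cap, at -0.55 (edgeR adjusted p = 4.52e-05). Of the 8 CDK12 partners 2 rose (CCNT1 and CCNH), and of the 6 genes of cholesterol transport, START domains and GPI anchors 1 fell (NPC2). Of the 7 transcription factors 2 rose and 2 fell, TFAP2A rising by 0.21 (edgeR adjusted p = 0.0452) and YBX1, a cold shock domain factor, falling by 0.38 (edgeR adjusted p = 4.77e-05).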

How the data were processed

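Poly-A RNA of 9 SKOV3 libraries was sequenced as paired-end reads, per the labels' protocols. The authors deposited whole-number counts per gene and FPKM, with HISAT2, HTSeq 0.11.2, DESeq2 1.26.0 and GRCh38 named in the submitters' processing notes; the settings are not given in the sources used here. All 32378 gene IDs matched GENCODE release 29, the source of positions. The deposited FPKM equalled count over gene length and library total within 8.2e-12. The union of exons was that length for 32283 genes, within 0.5 bp.

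Counts were tested with edgeR 4.0.16 (R 4.3.3): genes kept by filterByExpr (16450), TMM factors of 0.982 to 1.01, and a quasi-likelihood fit of all 9 libraries with a coefficient per group and no covariate (6 residual degrees of freedom). Adjusted p is by Benjamini-Hochberg over all tested genes, and a gene was called under 0.05. Libraries held 13851760 to 15533668 counts, which limits the precision of low genes such as GRB7 most. Log2 CPM used a prior count of 2. Same-numbered control and Carbo libraries deviated together (correlations of 0.824, 0.565 and 0.748 across 6607 genes), so the paired fit of those 6 libraries stands beside the unpaired one (2 residual degrees of freedom); the pairing comes from the data, since the labels give numbers only. Ratios were tested by exact permutation with scipy 1.17.1.

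All 8 members were named, and of each list of partner genes those called or, where none was, the 2 with the largest difference (for Carbo vs control, examples from the paired fit). Members, lists and tests were chosen with earlier results of these data known. The script for the tests was checked on simulated data. Alternatives were RLE factors, DESeq2 1.42.0, no filter, only the groups compared, limma 3.58.1 on log2(FPKM + 0.1), replicate blocks, a spline correction for GC content and gene length, and leaving out each library.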

Additional observations from a re-analysis of the deposited data

How the results depend on the processing

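Of 456 refitted log2 fold changes of the 8 members, 404 kept direction and side of the threshold, 30 gained a call, 11 lost one and 11 changed sign; the cause was not tested. The sign changes were all of uncalled values: for Carbo vs control, STARD3 (0.0353 with the GC and length correction and 0.0317 with that and the replicate block) and MED1 (-0.0126 and -0.0149, and -0.00306 to 0.0816 without single libraries); for Carbo+COM33 vs Carbo, PGAP3 (-0.139 to 0.087 without single libraries); for Carbo+COM33 vs control, CDK12 (-0.0104 with limma on FPKM, -0.023 with the correction, -0.0202 with correction and block, -0.0302 to 0.0766 without single libraries). The counts of all called genes moved far more. Carbo vs control had 0, and 133 with DESeq2, 928 without the filter, and 0 to 1034 without single libraries, the highest without Carbo 1. The replicate block gave 3739 in the 6 libraries compared, 1770 there with the correction, and 0 over 9 libraries. Alternatives chosen after seeing the data left each pair out of that block, with 4338, 1623 and 2842 called. Carbo+COM33 vs Carbo had 816, and 1340 with DESeq2, 1876 without the filter, 446 with limma, 1248 with the correction, and 120 (without Carbo 2) to 2721 (without Carbo 1) without single libraries, with 509 without control 2, 262 without Carbo 3, and 234, 239 and 488 without Carbo+COM33 1, 2 and 3. Carbo+COM33 vs control had 1035, and 1563, 1934 and 652 with DESeq2, no filter and limma, and 114 (without control 2) to 2208 (without Carbo+COM33 3), with 203 without control 3, 1809 and 631 without Carbo 1 and 2, and 153 and 177 without Carbo+COM33 1 and 2. Same-numbered Carbo+COM33 libraries did not deviate with the others (-0.388 to 0.138 with Carbo, -0.42 to 0.101 with control), so their numbers are not taken as pairing. With the replicate block Carbo+COM33 vs Carbo had 502 calls, or 1554 over 9 libraries, and Carbo+COM33 vs control 1625 over 9 libraries and 1609 with the correction.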
